A study of Saccharomyces cerevisiae with 2 samples.

Results

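The genes described here are those of ergosterol synthesis and sterol regulation in budding yeast, *Saccharomyces cerevisiae*, measured in a genetic interaction mapping (GIM) screen. The list names 38 genes: 9 of the mevalonate and prenyl steps, 14 of the late steps from squalene synthase on, and 15 for regulators, haem protein partners, esterification and transport. A gene was taken as measured when a probe with its symbol or synonym had a value on both arrays. Of the 38 listed genes, 36 were among the 5094 genes with probes on the array, and 29 of those 36 were measured. *HAP1* and *OSH7* had no probe under their symbols or synonyms. In *ERG3*, *ERG4*, *ERG6*, *ERG7*, *ERG24*, *ERG25* and *ERG28* every probe lacked a value on both arrays.

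In the screen, barcoded DAmP strains were combined by mating with a query deletion strain, and the resulting haploid double mutants grew for 18 generations under G418 and nourseothricin. DAmP alleles lower the mRNA abundance of a gene. The strains of both pools derive from BY4742/BY4741, laboratory strains of the S288C background. Barcodes amplified from genomic DNA of the query pool (Cy3) and of a reference pool (Cy5) were hybridised together on 2 arrays, 1 for each of 2 independent screens, which form a single group. The titles name *PIH1* as the query gene and the descriptions name *RSA1*. The series text calls the screens independent but the labels name no separate cultures. The p-values therefore rest on the spread between these arrays, pooled in part over all genes in the fit. How much of that spread is technical is not given. The labels give no genotype for the reference pool. A probe names a gene, not an allele, so each value is called the value of a gene, and whether it comes from a DAmP allele or another allele was not given.

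Ergosterol is the main sterol of yeast membranes. Its synthesis starts from acetyl-CoA, passes through mevalonate and farnesyl pyrophosphate, and continues in the endoplasmic reticulum from squalene through lanosterol to ergosterol. Several of the late enzymes use oxygen and haem or iron centres. The transcription factors Upc2 and Ecm22 raise genes of the late enzymes when sterol runs low. Surplus sterol is stored as esters or moved between membranes by lipid transfer proteins.

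All values below are log2 ratios of the query pool over the reference pool, centred on the median of each array. The direction is likely rather than stated in the sources, because genes next to *PIH1* had low ratios: the 34 measured genes within 50 kb of *PIH1* had a median of -1.01, and the 42 within 50 kb of *RSA1* a median of 0.04. A negative ratio thus likely marks double mutants that were scarcer in the query pool. The log base was read as log2 from the range of the values. Values were listed for 10998 probes on array 1 and 10382 on array 2, and array 2 had the wider spread (median absolute deviation, as an SD, of 0.35 and 0.63). Channel intensities were not analysed here, and having only 2 arrays limits precision throughout.

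Sterol genes mostly had ratios near 0, in about the same shares as all genes tested. *MVD1*, *HMG1* and *CYB5* were the only measured members at or above 0.5 on both arrays, and no member was at or below -0.5 on both. Of the 4048 genes tested, 13.2% reached 0.5 on both arrays and 4.99% reached -0.5 or less. The median of the 29 measured members was -0.08, with -0.14 on array 1 and -0.06 on array 2. All genes tested, which leave out those within 100 kb of *PIH1* or *RSA1*, had a median of -0.01. The 25 members among them had a median of -0.03. Both arrays lay within 0.5 of 0 for 18 of the 29 members, 17 of the 25, and 53.9% of all genes tested. The sign differed between arrays for 9 of the 29 members, 8 of the 25, and 31.4% of all genes tested. On array 1 alone 1 member reached 1 (6.92% of all genes tested did), and on array 2 alone 4 did (17.2%), namely *MVD1*, *ERG26*, *CYB5* and *HMG1*.

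The limma test, run against 0 over the 4048 genes outside the regions of *PIH1* and *RSA1*, called none of the 25 members in it. It called 0 of the 4048 genes (0.0%) at an adjusted p under 0.05 (smallest adjusted p = 0.227 over all genes and 0.234 among members). At an unadjusted p under 0.05 it counted 3 members (*HMG1*, *MVD1* and *CYB5*) and 678 genes in all, or 16.7%. The members' count was thus not above the background share. An exact two-sided permutation test that flips the signs of 1 gene's 2 values cannot go below p = 0.5. Each ratio includes the reference pool, so the limma test cannot separate its variation between the arrays from that of the query pool.

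**Figure D1:**
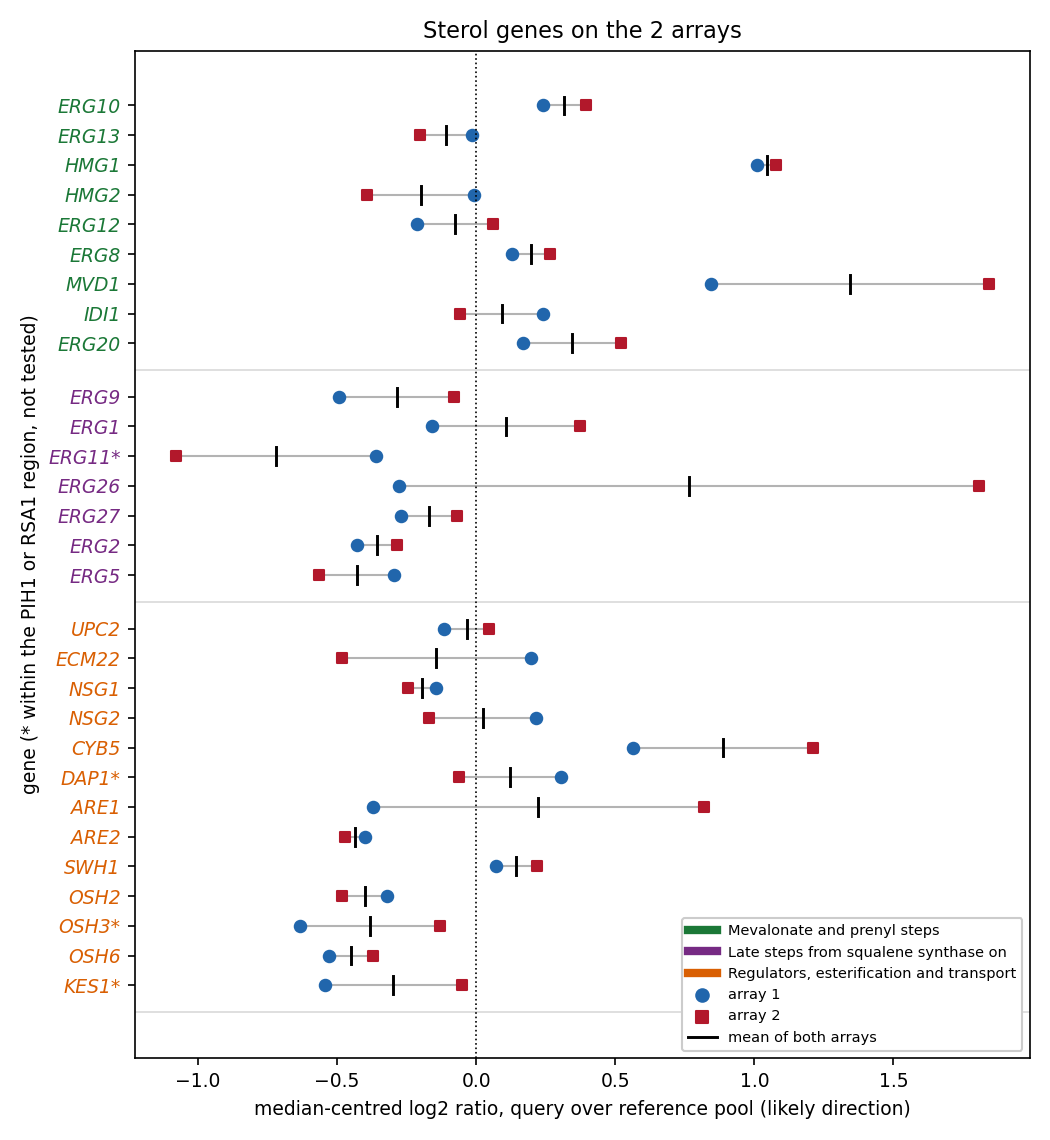
Centred log2 ratio (horizontal axis) of each of the 29 measured sterol genes (vertical axis) on array 1 (circles) and array 2 (squares), with a tick at the mean and an asterisk for genes in the *PIH1* or *RSA1* region. *HMG1*, *MVD1* and *CYB5* lie at or above 0.5 on both arrays, while *ERG26* and *ARE1* are below 0 on array 1 and above 0.8 on array 2.

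The mevalonate and prenyl steps were measured in full, and its median was positive, by an amount that depended on the processing. Of its 9 genes, 5 were positive on both arrays, 2 negative on both and 2 of opposite sign, where 34.7% of all genes tested were positive on both. The 9 genes had a median of 0.20, with 0.17 on array 1 and 0.27 on array 2. It was 0.032 without centring and 0.091 with only the probes measured on both arrays, where *ERG20*, 1 of the 5, turned negative. No test was made of the group as a whole.

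*MVD1*, which encodes mevalonate pyrophosphate decarboxylase, had the highest mean of all members. It stood at 0.84 on array 1 and 1.84 on array 2, a mean of 1.34 ± 0.71 (SD, n = 2), or 2.54-fold higher. Both arrays were high, array 2 more so, and 91.6% and 90.4% of the genes tested lay below it. Its 2 probes stood at 0.71 and 0.98 on array 1 and at 1.97 and 1.72 on array 2, so each probe was positive on each array. In the limma fit its adjusted p was 0.252. Both arrays were also brought to the same median absolute deviation (MAD scaling), where *MVD1* stood at 1.14 and 1.37. Limma then called it (adjusted p = 0.0258). Of all genes tested, 8.97% were called in that fit with a positive ratio.

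*HMG1* encodes the main aerobic isozyme of HMG-CoA reductase, the enzyme that makes mevalonate and the controlled step of the pathway. It stood at 1.01 on array 1 and 1.08 on array 2, a mean of 1.04 ± 0.05 (SD, n = 2), or 2.06-fold higher. It was the single member at or above 1 on both arrays, a mark that 6.4% of all genes tested reached. Without centring no member reached it. Its probes stood at 1.12 and 0.90 on array 1 and at 1.14 and 1.02 on array 2. The arrays agreed in value but not in rank, since 93.2% of genes lay below it on array 1 and 83.9% on array 2. Its limma adjusted p was 0.234, and it was 0.0544 after MAD scaling, where the arrays gave 1.36 and 0.80.

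*HMG2*, which encodes the other reductase isozyme, did not share the high ratio. It stood at -0.01 on array 1 and -0.39 on array 2, from the same single probe each time. *HMG1* exceeded *HMG2* by 1.02 on array 1 and by 1.47 on array 2, a mean difference of 1.24 ± 0.32 (SD, n = 2). This was the largest mean difference among the 5 measured paralog pairs, and it was not tested.

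The other mevalonate genes lay nearer to 0. *ERG10*, for acetoacetyl-CoA thiolase, stood at 0.24 and 0.39 on arrays 1 and 2 from a single probe. *ERG8*, for phosphomevalonate kinase, stood at 0.13 and 0.27. *ERG13*, for HMG-CoA synthase, stood at -0.01 and -0.20, and its probes read -0.29 and 0.26 on array 1. *ERG12*, for mevalonate kinase, stood at -0.21 and 0.06, and *IDI1*, for isopentenyl diphosphate isomerase, at 0.24 and -0.06 from a single probe. The last pair changed sign between arrays. Their limma adjusted p ran from 0.5001 for *ERG10* to 0.875 for *ERG12*, with limma standard errors from 0.19 to 0.20 log2 units.

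*ERG20*, for farnesyl pyrophosphate synthase at the branch point of sterols, dolichol, haem A and ubiquinone, stood at 0.17 on array 1 and 0.52 on array 2. This value depended on the probe. On array 1 its probes read 0.93 and -0.59, and on array 2 only the probe that read -0.59 had a value, 0.52. With probes measured on both arrays alone, its mean was -0.04 in place of 0.35.

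The late steps were the least covered group, and their measured genes leaned to negative ratios. All 7 of the probed sterol genes without values belong to it, which is 50% of its 14 genes, whereas 13.7% of all probed genes lacked a value on both arrays. Of its 7 measured genes, 5 were negative on both arrays, 2 of opposite sign and 0 positive on both, where 33.9% of all genes tested were negative on both. The group's median was -0.29 (-0.29 on array 1 and -0.08 on array 2). Over the 6 genes tested, without *ERG11*, the median was -0.23 (-0.29 on array 1 and -0.07 on array 2). Of those 6, 4 were negative on both arrays.

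*ERG11*, for the cytochrome P450 lanosterol demethylase that azole drugs inhibit, had the lowest mean of all members. It stood at -0.36 on array 1 and -1.08 on array 2, a mean of -0.72 ± 0.51 (SD, n = 2). Both probes were negative on both arrays, at -0.27 and -0.45 and then at -1.02 and -1.14. *ERG11* lies on the chromosome of *PIH1* with 32 genes between them, and double mutants of genes near a query deletion need a crossover between them, so they are rare. The 29 measured genes between 50 and 100 kb from *PIH1* had a median of -0.25 (quartiles -0.39 and -0.09), and 23 of them were negative. *ERG11* is itself 1 of the 29, at 55.3 kb, near the inner edge of that range. Its mean lay below the lower quartile there, and above the median of -1.01 of genes within 50 kb. Linkage and a genetic interaction cannot be told apart for *ERG11*. Kept in the limma fit as an alternative, it had an adjusted p of 0.337.

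Among the enzymes that handle squalene, *ERG9*, for squalene synthase, stood at -0.49 on array 1 and -0.08 on array 2. Its probes read -0.39 and -0.60 on array 1, and only the one at -0.39 had a value on array 2. *ERG1*, for squalene epoxidase, stood at -0.16 on array 1 and 0.37 on array 2. On array 2 the probes of *ERG1* disagreed, at 1.16 and -0.41, while on array 1 both were negative, at -0.08 and -0.24. Neither gene passed (limma adjusted p = 0.587 and 0.855).

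The demethylation enzymes were covered by *ERG26* and *ERG27*. *ERG26*, for the sterol dehydrogenase, had the widest spread of all members: the same single probe read -0.28 on array 1 and 1.81 on array 2, a mean of 0.76 ± 1.47 (SD, n = 2). *ERG27*, for the keto reductase of the same complex, stood at -0.27 and -0.07 from a single probe. *ERG25* and the scaffold gene *ERG28* had no values. The arrays thus gave no common direction for *ERG26*.

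Of the final steps, *ERG2*, for the sterol isomerase, stood at -0.43 on array 1 and -0.28 on array 2, but each value came from a different probe. *ERG5*, for the cytochrome P450 desaturase of the side chain, stood at -0.29 and -0.57 from its single probe. Both genes were low on both arrays, and neither passed (limma adjusted p = 0.451 and 0.405). The methyltransferase gene *ERG6*, the desaturase gene *ERG3*, and the reductase genes *ERG24* and *ERG4* had no values.

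**Figure D2:**
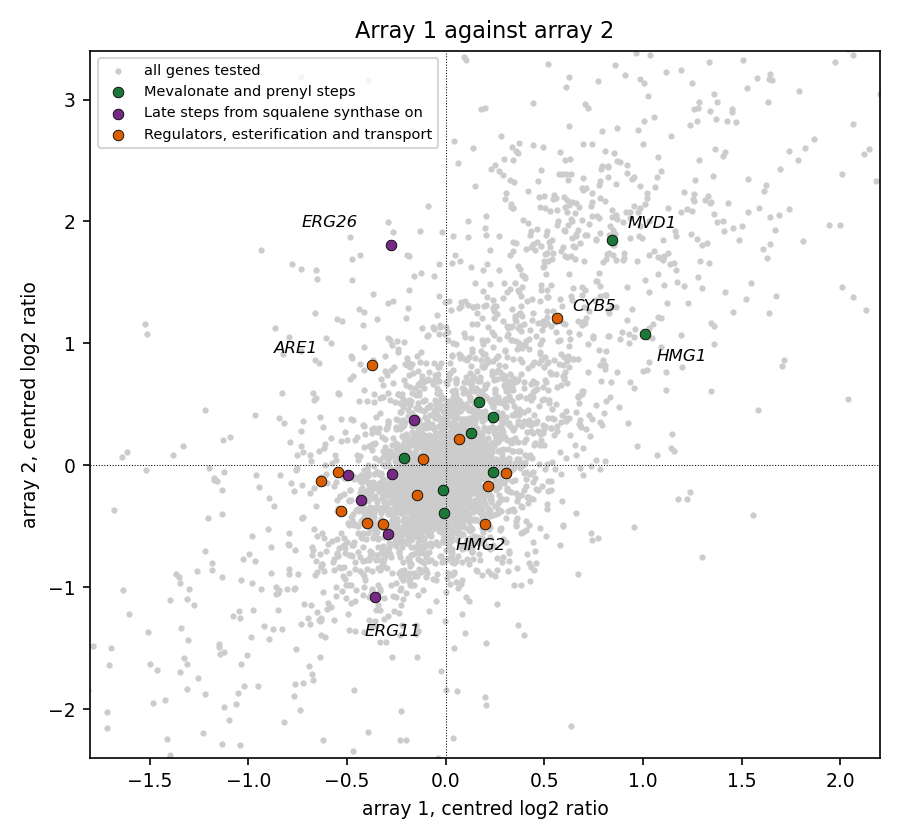
Centred log2 ratio on array 1 (horizontal axis) against array 2 (vertical axis) for all genes tested (grey) and the 29 measured sterol genes (coloured by group), with 185 tested genes beyond the axes. *HMG1*, *MVD1* and *CYB5* sit at the upper right, *ERG11* at the lower left, and *ERG26* and *ARE1* at the upper left.

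Enzymes of the pathway can also be divided by need for growth. Genes known as essential on standard medium had a median of 0.10 over 12 of 14 genes measured (-0.09 on array 1 and 0.16 on array 2). The dispensable ones had a median of -0.28 over 4 of 8 (-0.15 and -0.34 by array), with *HMG1* at 1.04 and *HMG2*, *ERG2* and *ERG5* below 0. The essential genes ran from -0.72 (*ERG11*) to 1.34 (*MVD1*), so the groups overlapped.

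Regulators of the pathway had values near 0. *UPC2*, for the sterol-sensing transcription factor, stood at -0.12 on array 1 and 0.05 on array 2 from 4 probes, of which 1 read 1.07 on array 2 while the others were negative there. Its paralog *ECM22* stood at 0.20 and -0.48 from a single probe. *NSG1*, for an Insig-like protein that binds and stabilises Hmg2, stood at -0.14 and -0.25, and its paralog *NSG2* at 0.22 and -0.17. The mean differences within these pairs were 0.11 ± 0.60 for *UPC2* minus *ECM22* and -0.22 ± 0.20 for *NSG1* minus *NSG2* (SD, n = 2). Of the 4 measured regulators only *NSG1* had the same sign on both arrays, and limma adjusted p ran from 0.662 to 0.964.

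Of the partners of haem proteins, *CYB5* was high on both arrays. It encodes cytochrome b5, which passes electrons to sterol and sphingolipid oxidases and to lanosterol demethylase. It stood at 0.56 on array 1 and 1.21 on array 2, a mean of 0.89 ± 0.46 (SD, n = 2), or 1.85-fold higher. Its 2 probes were close, at 0.49 and 0.63 and then at 1.28 and 1.15, and 86.5% and 85.5% of the genes tested lay below it. The limma adjusted p was 0.277. It was 0.0594 after MAD scaling and 0.0492 with quantile normalization, so only the latter called *CYB5*. Of all genes in the quantile fit, 9.91% were called with a positive ratio. Quantile normalization also called *MVD1* (adjusted p = 0.0223).

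*DAP1*, for a haem-binding partner of Erg11, stood at 0.31 on array 1 and -0.06 on array 2. It lies in the region of *RSA1*, with 23 genes between them, where no linked drop was seen. It was not tested in the fit.

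Of the 2 esterification genes, only *ARE1* differed in sign between the arrays. *ARE1* and *ARE2* encode the acyltransferases that store sterol as esters. *ARE1* stood at -0.37 on array 1 and 0.82 on array 2, with 2 of its 4 probes measured and agreeing in sign on each array. *ARE2*, for the main isozyme under aerobic growth, stood at -0.40 and -0.47, a mean of -0.44 ± 0.05 (SD, n = 2). *ARE1* exceeded *ARE2* by 0.03 on array 1 and by 1.29 on array 2, so their difference rested on array 2. Neither gene passed (limma adjusted p = 0.812 and 0.376).

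Genes of the oxysterol-binding protein family, which move sterols and phosphoinositides or phosphatidylserine between membranes, had a median of -0.38 over 5 measured genes (-0.53 on array 1 and -0.13 on array 2). Of these, 4 were negative on both arrays, as were 33.9% of all genes tested, and *SWH1* was positive on both. *OSH3* and *KES1*, among those 4, lie in the query regions. *OSH6*, for a phosphatidylserine transporter, stood at -0.53 on array 1 and -0.37 on array 2, a mean of -0.45 ± 0.11 (SD, n = 2), the lowest among tested members. *OSH2* stood at -0.32 and -0.48, and all 4 of its probes were negative on both arrays. *SWH1*, the paralog of *OSH2*, stood at 0.07 and 0.22, above *OSH2* by 0.39 and 0.70 on arrays 1 and 2. The probes of *SWH1* differed in sign, at 0.27, 0.11, -0.03 and -0.06 on array 1. On array 2 they read 0.55, 0.46, -0.04 and -0.10. Its mean was -0.02 without centring.

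The remaining transport genes lie near a query locus. *OSH3*, with 46 genes between it and *PIH1*, stood at -0.63 on array 1 and -0.13 on array 2, where its probes read 0.38 and -0.64. *KES1*, for the sterol and phosphoinositide exchanger also known as Osh4, has 49 genes between it and *RSA1* and stood at -0.54 and -0.05. On array 2 the probes of *KES1* read 0.04 and -0.15. Genes between 50 and 100 kb from *PIH1*, as *OSH3* is, had a median of -0.25, and 23 of 29 were negative. Those at that distance from *RSA1*, as *KES1* is, had a median of -0.07, and 25 of 43 were negative. Whether linkage lowered *OSH3* or *KES1* was not tested. *OSH3* and *KES1* were both lower on array 1. Among the tested transport genes limma adjusted p ran from 0.372 (*OSH6*) to 0.748 (*SWH1*).

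Measured probes of a member lay within 1 of each other on each array, with 4 exceptions. Where a member had 2 or more measured probes, their median range was 0.23 on array 1 (21 members) and 0.32 on array 2 (19 members). The range exceeded 1 for *ERG20* on array 1 and for *ERG1*, *UPC2* and *OSH3* on array 2. Smaller ranges could also cross 0, as on array 2 for *NSG2* (0.05 and -0.39) and *ERG12* (-0.03 and 0.15). Among all genes with exactly 2 measured probes, 1.95% on array 1 and 6.11% on array 2 differed by over 1.

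**Figure D3:**
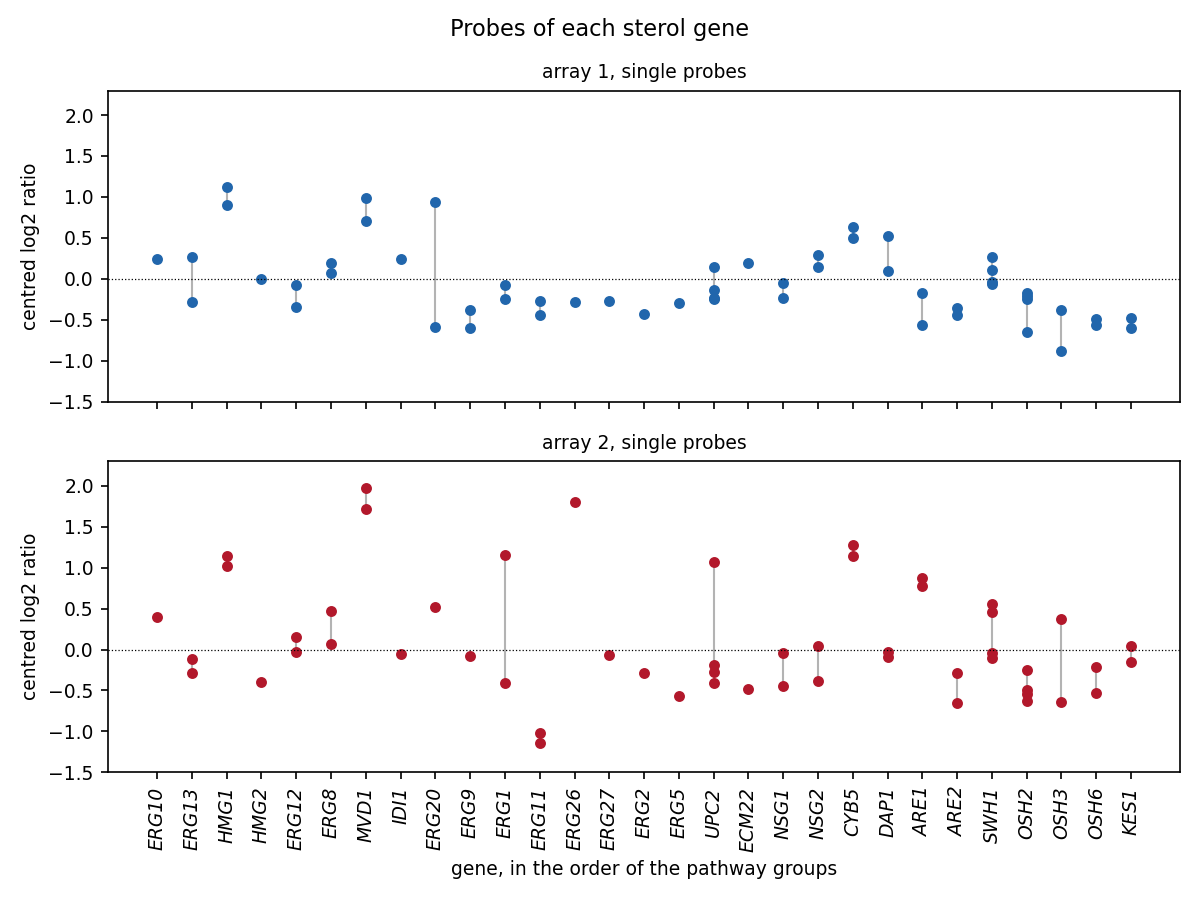
Centred log2 ratio (vertical axis) of every measured probe of the 29 sterol genes (horizontal axis), with array 1 above and array 2 below, and a line joining probes of a gene. Probes of *HMG1*, *MVD1* and *CYB5* lie close together on both arrays, while those of *ERG20* on array 1 and *ERG1* and *UPC2* on array 2 lie on both sides of 0.

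Related pathways were taken as 7 lists, and 1 of them, protein degradation at the endoplasmic reticulum, held genes at or below -1 on both arrays. This system removes Hmg2 through the ligase Hrd1 and squalene epoxidase, the product of *ERG1*, through the ligase Doa10 (gene *SSM4*). *SSM4* stood at -1.35 on array 1 and -1.69 on array 2, a mean of -1.52 ± 0.25 (SD, n = 2). *CUE1*, for the membrane anchor of Ubc7, stood at -1.31 and -1.63, and *UBC7*, for the ubiquitin-conjugating enzyme that serves both ligases, at -1.05 and -1.87 from a single probe. These 3 of the 9 measured genes were at or below -1 on both arrays, against 2.03% of all genes tested. The 7 lists were chosen with earlier results of these data known, so no share given for a list is a test of it. Both probes of *SSM4* and both of *CUE1* were below -1 on each array.

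Genes of the Hrd1 ligase complex itself had other values in the same list. *HRD1* was positive, at 0.45 and 0.62, and its partner gene *USA1* stood at 0.20 and 0.66. *HRD3* stood at -0.25 and -0.22 and *DER1* at -0.02 and -0.15. The limma fit called none of the list (adjusted p = 0.227 for *SSM4* and *CUE1* and 0.235 for *UBC7*). With MAD scaling it called *SSM4* (adjusted p = 0.0252), *CUE1* (0.0264) and *UBC7* (0.0196) and no other gene of the list, where 2.3% of all genes were called with a negative ratio. Since Ubc7 and its anchor Cue1 serve both ligases, 2 of these 3 genes belong to both branches, and no difference between the branches was tested. The client genes stood at 0.11 (*ERG1*) and -0.20 (*HMG2*) on average.

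In the list of sterol gene repressors and other factors, *TUP1*, for the general corepressor, was highest at 3.02 on array 1 and 4.32 on array 2. *ROX1*, for the repressor of hypoxic and sterol genes, was the lowest, at -2.80 and -0.66. *MOT3*, for another repressor of sterol genes, stood at 0.64 and 2.16. The list's median was 0.17 over 7 of 8 genes, and *TUP1* was its 1 gene at or above 1 on both arrays (6.4% of all genes tested). The limma adjusted p of *TUP1* was 0.227, and 0.0103 after MAD scaling, where 8.97% of all genes were called with a positive ratio. Quantile normalization called *TUP1* (adjusted p = 0.0178) and *MOT3* (0.0328), where 9.91% of all genes were called with a positive ratio.

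The sphingolipid list had a median of -0.04 over 16 of 20 genes (0.01 and 0.06 by array), with *LIP1*, for a ceramide synthase subunit, highest (0.96 and 3.38) and *IPT1*, for an inositolphosphotransferase, lowest (-0.51 and -0.59). *ELO3*, for the fatty acid elongase that makes the longest chains, was at or above 1 on both arrays, at 1.29 and 2.98. In the limma fit *ELO3* had an adjusted p of 0.251 and *LIP1* of 0.298. After MAD scaling it called *ELO3* (adjusted p = 0.0149) and *LIP1* (0.0424), 2 of the 15 tested genes of the list. Of all genes tested, 8.97% were called there with a positive ratio.

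Among other isoprenoid branches, *COQ1*, for the prenyl synthase of ubiquinone, was the highest of 5 measured genes, at 0.69 and 1.46, and *CDC43*, for a geranylgeranyl transferase subunit, the lowest, at -0.27 and -0.30. The limma adjusted p of *COQ1* was 0.259, and 0.0387 after MAD scaling, where 8.97% of all genes were called with a positive ratio. Electron supply and haem synthesis ran from *HEM4* (0.04 and -0.88) to *HEM12* (0.58 and 0.66) over 10 of 11 genes. There *CBR1*, for a cytochrome b5 reductase, stood at -0.02 and -0.04, unlike *CYB5*. *NCP1*, for the reductase of Erg11, stood at -0.66 and -0.13, but only 8 genes lie between it and *PIH1*.

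Sterol uptake and steryl ester hydrolysis was measured in full (8 genes, median 0.05, with -0.03 and 0.16 by array), from *ATF2* (0.01 and -0.48) to *TGL1* (-0.29 and 1.33). The list of Lam and NPC families and further OSH genes ran from *NCR1* (-0.19 and 0.11) to *LAM1*, also known as *YSP1* (0.48 and 1.44), over 6 of 9 genes, with a median of 0.16. Neither list held a gene beyond 1 in the same direction on both arrays.

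**Figure D4:**
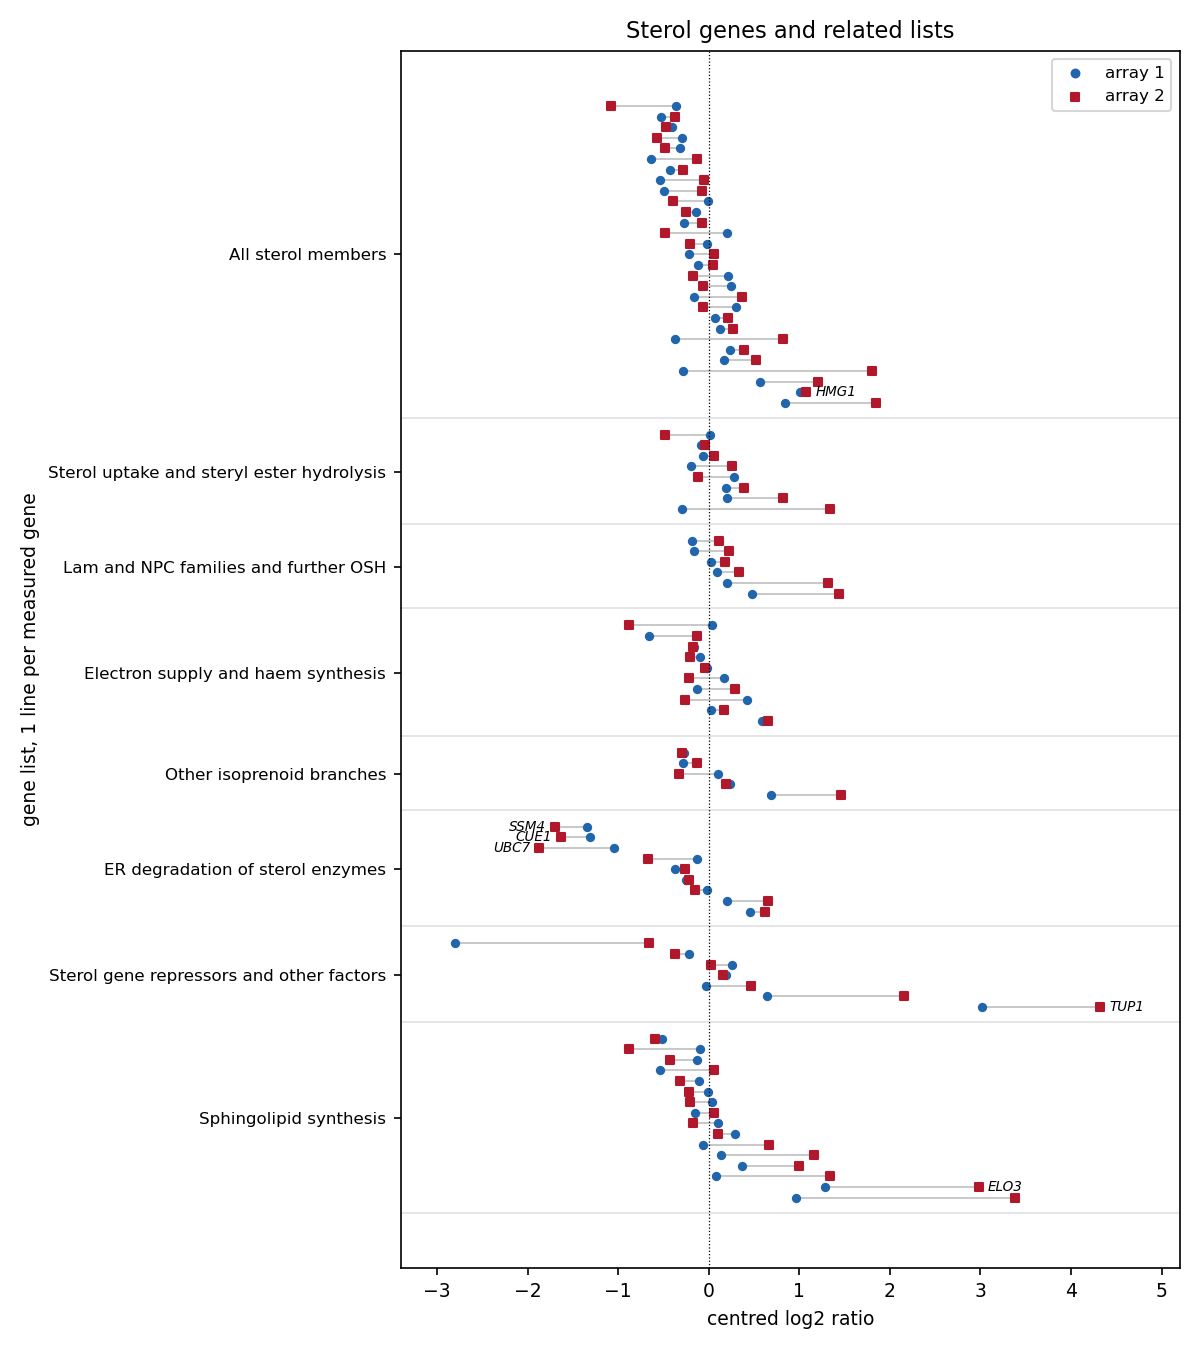
Centred log2 ratio (horizontal axis) on array 1 (circles) and array 2 (squares) of the 29 sterol genes and of the measured genes of 7 related lists (vertical axis, 1 line per gene, sorted by mean within a list). Named genes are at or beyond 1 in the same direction on both arrays, namely *HMG1*, *SSM4*, *CUE1*, *UBC7*, *TUP1* and *ELO3*.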

How the data were processed

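For each probe the authors deposited 1 log ratio of both channels, read here as log2. Its base, centring, direction, normalization and filtering are not stated in the labels. The column medians were -0.06 (array 1) and -0.27 (array 2), and each array was centred on its own. Probes were named by the platform annotation, and its 5100 symbols were matched to the R64 gene table (5034 current, 64 updated by synonym, 2 ambiguous and left out), used only for names and neighbourhood. Probes were averaged per gene and array.

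Of 4196 genes on both arrays, the 148 within 100 kb of *PIH1* or *RSA1* stayed out of the test. Ratios of the other 4048 were fitted with limma 3.58.1 in R 4.3.3 (lmFit with an intercept, eBayes, two-sided, Benjamini-Hochberg at 0.05). The fit was tested on simulated data. Python 3.11.15, numpy 2.4.6, pandas 2.3.3 and matplotlib 3.10.9 were used for the rest. No group, list or paralog pair was tested. The alternatives were no centring, 2 scalings, other probe rules, other moderation, the query regions kept, and single arrays.

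Named genes are all members and, of the related lists, genes at or beyond 1 in the same direction on both arrays and each list's highest and lowest gene. Outside this rule, *MOT3*, *HRD3*, *USA1*, *DER1*, *CBR1* and *NCP1* were named after their values were seen. Members and lists were chosen with earlier results of these data known. Sequences of the genes or barcodes were not used here.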

Additional observations from a re-analysis of the deposited data

How the results depend on the processing

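The count of calls depended on scaling between the arrays and on the moderation. Limma called 0 genes as centred, 456 with equal median absolute deviations (MAD scaling), 491 after quantile normalization and 126 with a trend in eBayes, and 0 in the other 6 alternatives. Among members it called 0, then 1 (*MVD1*), 2 (*MVD1* at 1.35 and *CYB5* at 0.90) and 0. The cause was not tested. Without centring, which shifts array 2 by 0.27, *IDI1* (-0.074), *ERG1* (-0.059), *NSG2* (-0.14), *DAP1* (-0.044) and *SWH1* (-0.022) turned negative, and the medians were -0.24 (all members), 0.032 (mevalonate), -0.45 (late), -0.31 (regulators, esterification and transport) and -0.44 (dispensable enzymes). *ERG20* turned negative after quantile normalization (-0.19) and with probes on both arrays only (-0.036), which both drop its high probe; the mevalonate median was 0.091 in the latter. The median of regulators, esterification and transport was -0.061 after MAD scaling, -0.065 after quantile normalization, -0.19 with the median of probes and -0.11 with at least 2 probes on each array. That last filter left *HMG1* (1.04) alone among dispensable enzymes. By single array, medians ran from -0.14 to -0.063 (all members), 0.17 to 0.27 (mevalonate), -0.29 to -0.079 (late), -0.14 to -0.13 (regulators, esterification and transport), -0.087 to 0.16 (essential) and -0.34 to -0.15 (dispensable). Members at or above 1 numbered 1 on both arrays, 0 without centring, 3 at a limit of 0.5, and 1 to 4 by single array. Those at or below -1 numbered 0 on both arrays and 0 to 1 by single array. Apart from single arrays, 129 values of tested members under an alternative kept their direction and their side of the threshold, 23 of the untested members kept their direction, 3 passed the threshold (*MVD1* by both scalings, at 1.25 and 1.35, and *CYB5*) and 7 turned sign. No paired analysis was possible because the arrays form 1 group. Signal over background was not analysed here.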
